A study of Mus musculus with 2 samples.

Results

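Prefix incomplete matches are long-read transcript models whose chain of introns is the head of a longer transcript's chain, so that they keep its 5′ part and lack at least its last splice junction. They were all the models that the deposited tables class as incomplete splice matches of the prefix subtype, 2209 of 121256 table entries: 1094 of 58180 in replicate 1 and 1115 of 63076 in replicate 2. The libraries came from heart tissue of female B6CASTF1/J mice, a hybrid of the C57BL/6 and CAST strains, aged 18 to 20 months, each made from 2 µg of RNA with spiked-in control RNAs. The series holds 1 group of 2 libraries, and the labels give separate biological samples but the same donor entry. Each SD (n = 2) thus measures only the spread between these 2 samples, which may be technical. Each test sets the difference between the 2 libraries against counting error only. Reads on mouse models numbered 630211 and 664319. The heart label held: the cardiac myosin gene Myh6 had 9032 and 8688 reads, while the macrophage marker Csf1r had 8 and 17. The red blood cell gene Hba-a1 had 10349 and 4361 reads, of which 6 and 2 were prefix reads.

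The 3′ end of a messenger RNA is made when the nascent transcript is cut downstream of a poly(A) signal, most often the hexamer AATAAA or its variant ATTAAA, and a tail of adenines is added. Many genes hold more than 1 such site. A site used inside an intron gives a shorter transcript whose last exon runs on into that intron. Complementary DNA is commonly primed with oligo(dT), which can also anneal to a run of adenines within a transcript, and RNA fragments can end anywhere. The deposited models do not tell these sources apart, and none of them was tested.

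The sequence at models found in both libraries shows ends of 4 kinds. The examples were chosen with their sequence and reads in view, to show each kind and not how frequent it is. All are written 5′ to 3′ on the transcript strand from the GENCODE M21 transcripts (GRCm38/mm10). The first set lies inside an exon ahead of an adenine-rich stretch, as 25.5% and 24.2% of such ends did, and each line gives 10 bases before the end and 20 after it, with the adenines after the end in capitals. They are at chr16:91654690-91654719 on the plus strand for Son and chr12:111541718-111541747 on the plus strand for Eif5.
Son: aaagaagcatAAAAAgcAcAAAAAcAAAAA
Eif5: ttggtacaggAAAgAAAgAAAAggAAAAgA
Of the 20 bases after the end, 16 were adenine in Son, with 59 and 53 reads, and 15 in Eif5, with 8 and 2. The Eif5 end was also the annotated 3′ end of a transcript annotated as a retained intron, and the Son end was at no annotated end. In Ccnl2, a cyclin whose model ended inside an exon with 13 and 4 reads, 8 were adenine, and its end lay 1665 bases away in replicate 2.

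The second set ends on the last base of an internal exon, and each line gives the last 30 bases of the model. Sec62 lies at chr3:30809997-30810026, the longer Eif5b model at chr1:38021782-38021811 and Dync1i2 at chr2:71214526-71214555, all on the plus strand.
Sec62: aaagatggtgaaaaggaagattccaaaaag
Eif5b: gaggagcttgaagccaaacgaaaagaagag
Dync1i2: aggaaagaagaggaaaggaaaaaaaaggaa
None of the 3 holds either signal hexamer in its last 50 bases. A model of Pofut2, a protein O-fucosyltransferase, with 5 and 4 reads also ended on the last base of an exon and held one.

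The third set runs past an exon into the next intron, with the last 30 bases given and the signal hexamer in capitals. Lrp6 is at chr6:134540774-134540803, Mccc1 at chr3:35973380-35973409 and Phf10 at chr17:14947738-14947767, all on the minus strand, and Sik3 is at chr9:46202856-46202885 on the plus strand.
Lrp6: taaagcttatacaATTAAAaaatataaaaa
Mccc1: cctctaaactAATAAAacagagactctctc
Phf10: tcaaaAATAAAtaagccaaaattgtttttg
Sik3: agggaagttgaAATAAAatggttttcatgg
In these 4 the hexamer begins 17, 20, 25 and 19 bases from the end, in the order printed, counting the last base as 1.

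The fourth set is not early at all: an intron of the parent is kept as exon, and the model ends where the full-length transcript does or within a few bases of it. Myl3 is at chr9:110769765-110769794 on the plus strand, and Mbd3 at chr10:80392539-80392568 and Fxyd1 at chr7:31051678-31051707 are on the minus strand.
Myl3: ggccttatgAATAAAtggtttccttccttc
Mbd3: ttcAATAAActgatggtaggaacttgtgaa
Fxyd1: tctAATAAAactcggttttccttcttgata
Here AATAAA begins 21, 27 and 27 bases from the end.

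Prefix models were a small class. They held 1853 reads in replicate 1 and 1905 in replicate 2, or 0.294% (exact Clopper-Pearson 95% interval 0.281 to 0.308) and 0.287% (0.274 to 0.3) of mouse reads, a mean of 0.29% ± 0.00514 (SD, n = 2). The difference between the libraries was within counting error (Fisher's exact test, two-sided, p = 0.443). These intervals cover counting error only. By comparison, suffix models, which lack the 5′ part of a transcript, held 8.77% and 9.34% of mouse reads. Of the reads on all incomplete matches, the prefix class took 1.97% and 1.67%. A single read supported 867 prefix models in replicate 1 (79.3%) and 884 in replicate 2 (79.3%), against 67.5% and 68% of suffix models. The prefix model with the most reads had 59 in replicate 1 and 53 in replicate 2, and in both libraries it was Son. The median prefix model had 6 exons in each library and spanned 1508 and 1444 bases of sequence. Protein-coding genes held 95.4% and 96.4% of the models.

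Both ends of the prefix models were set against the annotated ends of their genes. The 5′ end fell on the exact base of an annotated transcript start in 1023 models of replicate 1 (93.5%) and 1035 of replicate 2 (92.8%), whereas 21.3% of suffix models did so in each library. The 3′ end fell on the exact base of an annotated 3′ end of the gene in 434 (39.7%) and 456 (40.9%) models, against 88.6% and 88.1% of suffix models. A further 341 (31.2%) and 345 (30.9%) ended on the exact last base of an annotated internal exon, a position that held 0.313% and 0.268% of suffix models. These contrasts follow in large part from the classes themselves. Prefix models keep the 5′ part of a transcript by definition, and suffix models keep the 3′ part. The remaining 319 and 314 prefix models ended elsewhere. The sources used here do not say how the authors' software set the ends of a model from its reads, so an exact match to an annotated base may reflect that step as well as the molecule. Among models ending at an annotated 3′ end, 53.7% in each library shared it with a protein-coding transcript and 31.8% and 28.1% with one annotated as a retained intron. A 3′ end could be shared with transcripts of both types.

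Each model was then placed against its parent, the annotated transcript whose introns begin with those of the model. The transcript with the most reads in the same library was taken where several did. An annotated parent existed for 922 models (84.3%) and 935 models (83.9%), and the other 172 and 180 continued only into new models of the same library. The 3′ end lay within 20 bases of the end of an internal exon in 315 of 922 models (34.2%) in replicate 1 and 333 of 935 (35.6%) in replicate 2. It lay in the next intron in 290 (31.5%) and 291 (31.1%). Ends past the next intron numbered 211 (22.9%) and 212 (22.7%), and ends inside the exon 106 (11.5%) and 99 (10.6%). The intervals of the exon end and the next intron overlapped, and their order turned when each read was counted, with 30.7% and 30.8% of reads at the exon end and 32.4% and 32.1% in the next intron. It turned as well in models of at least 2 reads, with means of 29.3% at the exon end and 33.7% in the next intron, and with no tolerance both stood at 32.3%. At the exon end, 299 of the 315 and 300 of the 333 models lay on its exact last base.

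**Figure D1:**
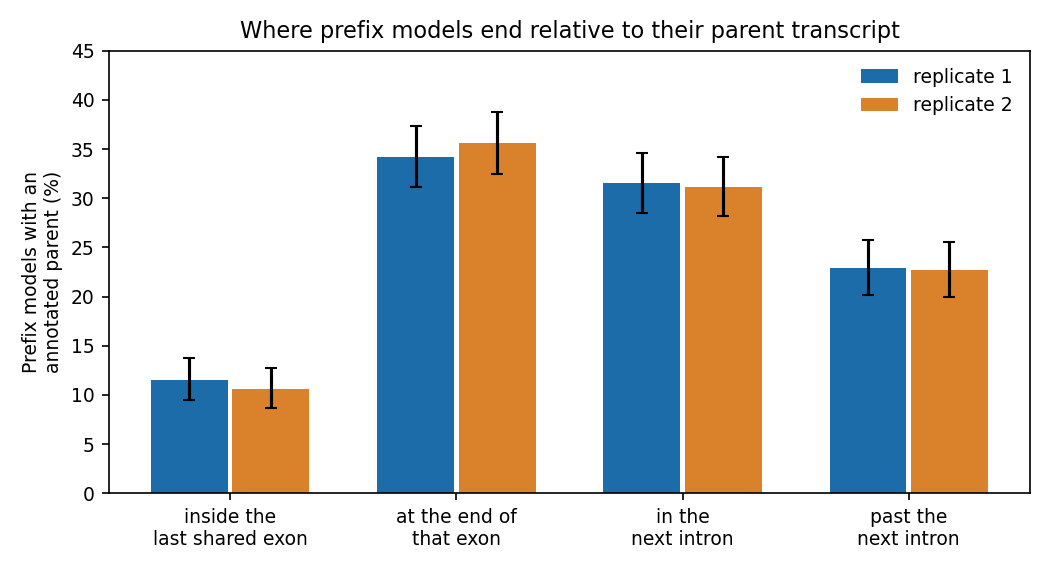
Percent of prefix models with an annotated parent whose 3′ end lies inside the last exon shared with the parent, within 20 bases of its end, in the next intron or past the next intron, in replicate 1 (blue, 922 models) and replicate 2 (orange, 935 models). Bars start at 0 and error bars are exact 95% intervals; exon ends and the next intron each hold between 31.1% and 35.6%, and the libraries' intervals overlap at each place.

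The parents of prefix models had a median length of 3014 and 2918 bases with 11 exons in each library. Known spliced transcripts with reads had a median of 2231 and 2216 bases and 7 exons. By the rule a parent has more introns than its model, and it was counted once for each model. Known spliced transcripts have no such limit, so this difference is partly set by the rule. A prefix model reached a median of 38.4% of its parent's length in replicate 1 (quartiles 21 to 67.4) and 39.1% in replicate 2 (21.3 to 69.6), counted as parent exonic bases up to the 3′ end. It lacked a median of 3.5 and 4 exons. Of the models with a coding parent, 680 of 858 (79.3%) and 688 of 891 (77.2%) ended before the parent's last coding base.

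Models that ended inside an exon stopped a median of 113 and 95 bases short of its end. Those in the next intron ran a median of 672 bases (quartiles 328 to 1284) and 611 bases (334 to 1148) past the exon, in introns with a median length of 3520 and 3381 bases. They reached a median of 35.6% of the parent in each library, next to 31.2% and 29% for models at the exon end. Models past the next intron differed: they reached a median of 99.9% and 100% of the parent. Within that class 168 of 211 (79.6%) and 185 of 212 (87.3%) spanned the parent's last intron, and 22 and 15 ended on the first base of the next exon, so that they covered an intron and none of what follows. In all, 128 of 922 models (13.9%) and 149 of 935 (15.9%) came within 20 bases of the parent's 3′ end or passed it, and all of them lay in this class. For these models the name of the class describes the intron chain and not an early end.

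**Figure D2:**
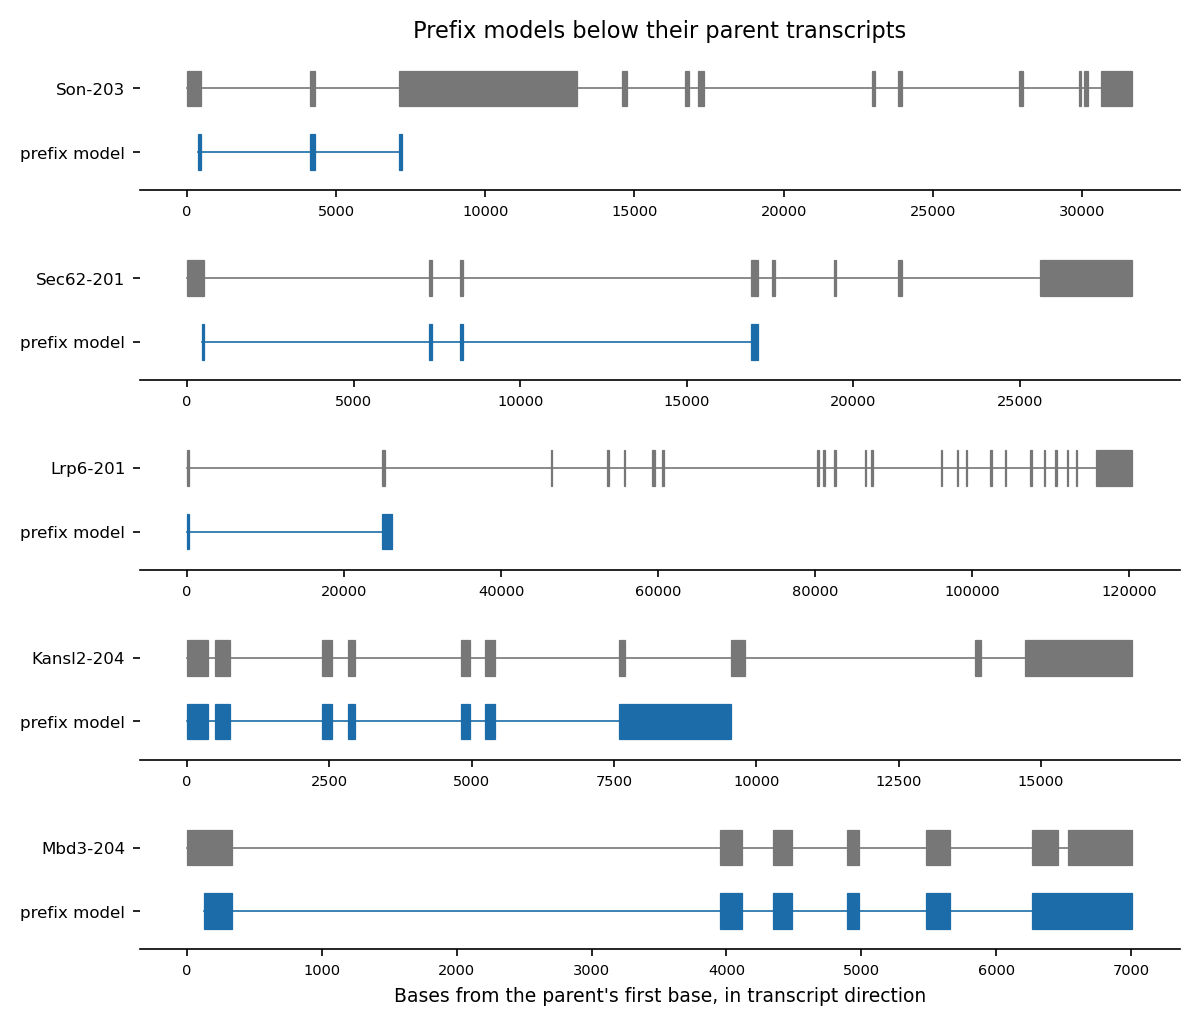
Exons (boxes) of 5 parent transcripts (grey) and of a prefix model found in both libraries (blue), as lines of bases from the parent's first base in transcript direction, each panel on its own scale. The Son model stops inside exon 3, Sec62 at the end of exon 4, Lrp6 in the intron after exon 2 and Kansl2 at the far end of the intron after exon 7, while the Mbd3 model spans the last intron and ends with its parent.

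The sequence before the end differed by place. AATAAA or ATTAAA was searched in the last 50 spliced bases on the transcript strand only. Of models that ended in the next intron at an annotated 3′ end, 62.7% (exact 95% interval 53.3 to 71.4) had a signal in replicate 1 and 63.4% in replicate 2. Past the next intron it was 77% and 79.8%, next to 72.8% and 72.9% of known spliced transcripts and 80.6% and 79.9% of suffix models. Models at the exon end had one in 9.9% (6.83 to 13.8) and 8.23%, and models inside an exon in 7.55% (3.31 to 14.3) and 14.3%. Inside exons a signal stood before 3.23% and 6.67% of annotated 3′ ends and before 13.6% and 26.3% of the others. The intervals of these 2 kinds overlapped in each library. Of all 50-base windows of the parents, taken every 10 bases, 4.09% and 3.91% held a signal. Ends in the next intron away from annotated ends could not be searched, because no transcript covers enough of them.

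Adenine-rich sequence followed some of the ends inside exons. At least 12 adenines in the 20 bases after the end were found in 27 of 106 models (25.5%, exact 95% interval 17.5 to 34.9) and 24 of 99 (24.2%, 16.2 to 33.9). The share was 3.97% and 3.82% of all 20-base windows of the same exons. The share was 35.5% and 32.8% where the end was also an annotated 3′ end and 11.4% and 10.5% where it was not. The intervals of the 2 kinds overlapped at their edges in each library (23.7 to 48.7 and 3.79 to 24.6 in replicate 1). Among ends at an exon end the bases beyond lie in the intron and were not read, so the 20 bases before the end were counted after the values above were seen. There 21 of 313 models (6.71%, 4.2 to 10.1) and 18 of 328 (5.49%, 3.28 to 8.53) had at least 12 adenines, next to 1.39% and 1.35% of all internal exon ends of the same parents. Other places had as many or more: 12.7% and 11.6% at annotated ends in the next intron, 6.74% and 5.7% past the next intron and 6.6% and 8.16% inside exons, so this was not particular to exon ends. Of all 20-base windows of the parents 1.17% in each library had as many.

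**Figure D3:**
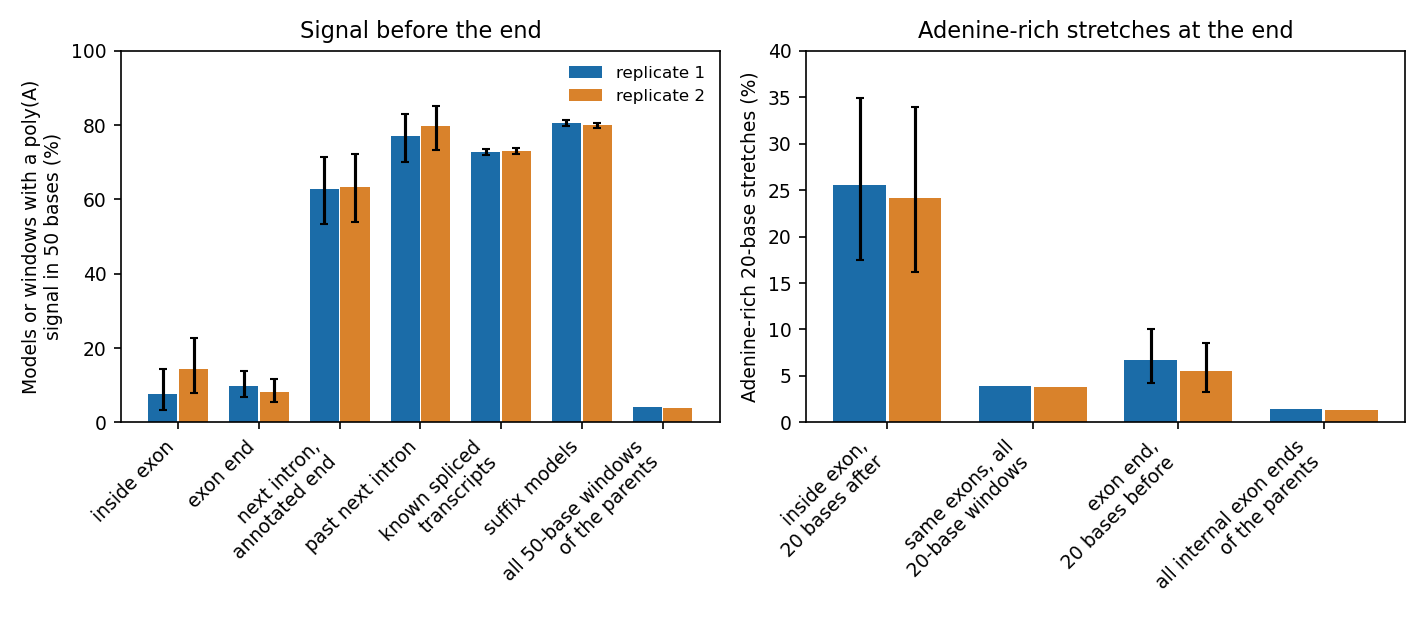
Left, percent of models (or of all windows of the parents) with a poly(A) signal in the 50 bases before the 3′ end; right, percent of 20-base stretches with at least 12 adenines after ends inside exons and before ends at exon ends, each beside its background, in replicate 1 (blue) and replicate 2 (orange). Error bars are exact 95% intervals and window backgrounds have none; signals stand before 62.7% or more of annotated ends in the next intron and of ends past it, and before 14.3% or fewer of ends inside or at the end of exons.

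The libraries were compared chain by chain to see which models recurred. Of 1930 distinct prefix chains 279 were prefix models in both libraries, 25.5% of those in replicate 1 and 25% of those in replicate 2, and they held 48.7% and 48.1% of the prefix reads. Recurrence followed the number of reads. Chains with 1 read in replicate 1 were found again in 16.5% of cases, those with 2 reads in 42.1%, and those with 5 or more in 87.8%. In replicate 2 the same shares were 16.6%, 44.9% and 90.6%. For suffix chains with 1 read it was 26.8% and 23.7%, above the prefix chains, and for those with 5 or more 97.4% and 96.8%.

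The 3′ ends of the shared chains mostly recurred to the base. In 195 of 279 (69.9%, exact 95% interval 64.1 to 75.2) the end was the same base, in 219 it lay within 20 bases and in 51 it was more than 100 bases away, at most 5068. The same base was an annotated 3′ end in 114 chains and an annotated exon end in 53. Of 51 chains whose end lay at neither in either library, where no annotated base is involved, 28 ended on the same base and 35 within 20 bases. The share with the same base ran from 64.6% of chains in the next intron to 76.4% at the exon end.

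**Figure D4:**
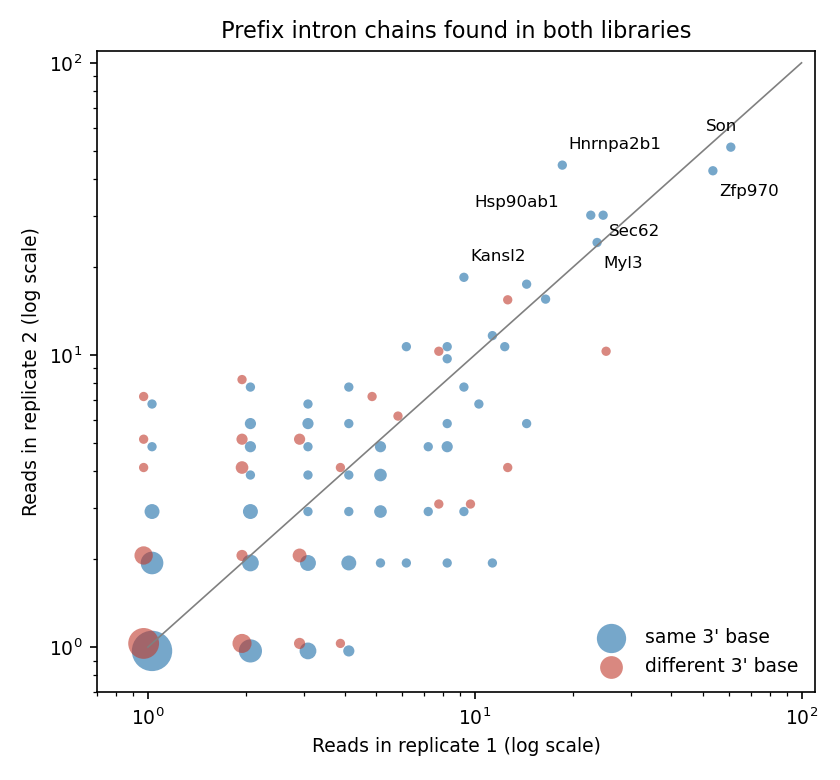
Reads of the 279 prefix intron chains found in both libraries, replicate 1 against replicate 2, both axes on a log scale and points sized by the number of chains at the same values; blue points have the same 3′ base in both libraries and red points do not, and points are nudged slightly apart by colour. Son (59 and 53 reads) and Zfp970 (52 and 44) stand highest and lie near the grey line of equal reads, while most chains have 1 to 5 reads.

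Prefix reads were spread over many genes with a few high ones. Annotated genes with prefix reads numbered 874 and 909, with 341 in both libraries and 1442 of 15031 in either. Of 3091 genes that had 20 or more reads in both libraries 621 (20.1%) had prefix reads in either, with a median share of 1.08% of the gene's reads among them. The share was at least 1% in both libraries in 134 genes, at least 10% in 21 and at least 50% in 2. The 20 genes with the most prefix reads held 24.6% and 25.4% of all prefix reads.

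Son and Sec62 were the 2 genes above 50% among those with 20 reads or more. Son, a large nuclear speckle protein that assists splicing, had 59 prefix reads of 62 in replicate 1 (95.2%) and 53 of 60 in replicate 2 (88.3%), 91.7% ± 4.83. All of them fell on 1 model of 3 exons and 362 bases, which ended on the same base in both libraries (chr16:91647879-91654699). That base lay 5881 bases before the end of the third of the parent's 12 exons, just ahead of the adenine run printed above. The end lay 8.42% of the way along the parent's 8731 exonic bases. Sec62, a subunit of the protein translocation machinery of the endoplasmic reticulum, had 24 of 43 reads (55.8%) and 31 of 60 (51.7%), 53.7% ± 2.93. Its single model stopped on the last base of the fourth of 8 exons in both libraries. In both genes the model ended before the parent's last coding base.

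Eif5b, Eif5 and Dync1i2 had models that ended inside or at the end of an exon. Eif5b, a translation initiation factor that helps join the ribosomal subunits, had 10 of 26 reads (38.5%) and 17 of 35 (48.6%) in prefix models. They formed 2 models, of 2 and 5 exons out of 24, and both stopped on the last base of an exon. Eif5, another initiation factor, had 9 of 84 (10.7%) and 2 of 91 (2.2%). Dync1i2, an intermediate chain of the motor protein dynein, had a model with 5 reads in each library.

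Lrp6, Sik3, Phf10, Mccc1, Ankrd11 and Caprin1 had models that ended in an intron at an annotated 3′ end. Lrp6, a co-receptor for Wnt ligands, had 8 of 13 reads (61.5%) and 11 of 20 (55%) on a model of 2 exons out of 23. Its end lay 878 bases into an intron of 21058 bases, at the 3′ end of a transcript annotated as a retained intron. Sik3, a kinase of the salt-inducible family, had 8 of 22 (36.4%) and 10 of 29 (34.5%), with 14 of 25 exons and an end 815 bases into the intron, at that of a shorter transcript annotated as protein-coding. These shares were close between the libraries, with wide exact intervals at such read numbers (17.2 to 59.3 for Sik3 in replicate 1). Phf10, a subunit of a SWI/SNF chromatin remodelling complex, had 6 of 25 (24%) and 8 of 25 (32%). Mccc1, a subunit of the leucine-degrading enzyme methylcrotonoyl-CoA carboxylase, had 9 and 8 reads on a model that ran 694 bases into an intron. Ankrd11, a chromatin regulator, had 8 of 18 and 5 of 18 reads on a model of 7 of 13 exons, and Caprin1, an RNA-binding protein, had 8 of 38 and 5 of 39 on a model that lacks only the last of 19 exons. The last 2 were chosen after their values were seen, as were Eif5, Dync1i2 and Mccc1, and all 5 had 5 or more reads in at least 1 library.

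Kansl2 and Mbd3 show ends beyond the next intron. Kansl2, a subunit of the NSL histone acetyltransferase complex, had 12 of 61 reads (19.7%) and 20 of 70 (28.6%). Its main model, with 9 and 19 reads, kept 7 exons and the whole following intron of 1862 bases and stopped on the first base of the next exon. Mbd3, a subunit of the NuRD chromatin complex, had 14 of 43 (32.6%) and 15 of 48 (31.2%). All its models ended at the annotated 3′ end, and the one with 12 and 11 reads kept the last intron of 76 bases as exon. Dus1l, named for its likeness to dihydrouridine synthases of transfer RNA, had 9 of 22 (40.9%) and 9 of 24 (37.5%) on a 14-exon model at an annotated 3′ end, but the chain was not the same in the 2 libraries.

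The zinc finger genes Zfp970 and Zfp938 and 2 non-coding genes were among the 20 with the most prefix reads. Zfp970 had the most prefix reads of all genes over both libraries, 63 of 158 (39.9%) and 50 of 150 (33.3%). Its main model, of 3 exons out of 4, ran 843 bases into the last intron and ended on the same base in both libraries at no annotated end (chr2:177464733-177474521, plus strand). Zfp938 had 13 of 13 and 15 of 16 reads, but its ends lay 2591 bases apart: at an exon end in replicate 1 and at the end of the parent in replicate 2. Both belong to a gene family with closely similar copies, so the assignment of their reads to 1 copy is uncertain. The non-coding genes 1500026H17Rik, with 11 of 12 and 12 of 13 reads, and Fam120aos, with 8 of 9 and 10 of 11, had most of their few reads in prefix models. Their ends recurred to the base in the first and lay 618 bases apart in the second. An unannotated locus on chromosome 8 had a 6-exon model with 26 and 10 reads, 31% and 14.1% of the locus.

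**Figure D5:**
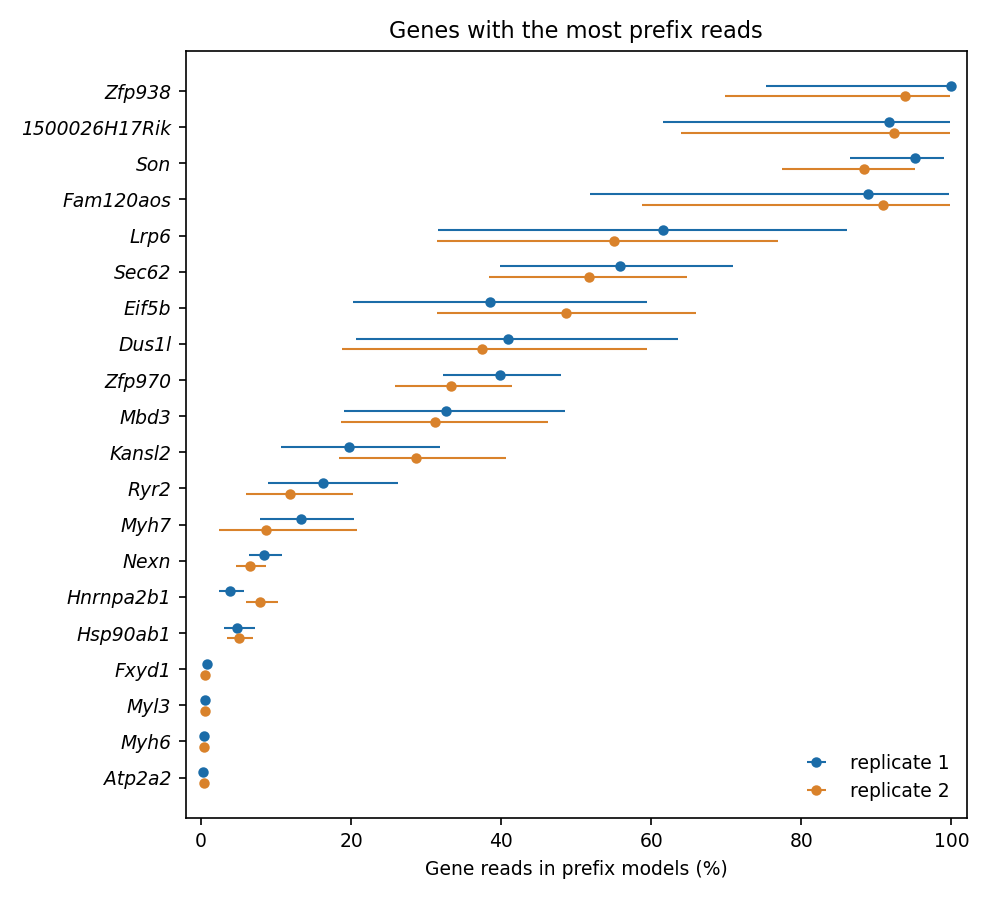
Percent of a gene's mouse reads in prefix models for the 20 genes with the most prefix reads, ordered by the mean of both libraries, in replicate 1 (blue) and replicate 2 (orange), with exact 95% intervals as bars where wider than the point. Zfp938, 1500026H17Rik, Son and Fam120aos lie above 88% in both libraries, and Fxyd1, Myl3, Myh6 and Atp2a2 lie below 1%.

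Sarcomere genes, which encode the contractile apparatus, had many prefix models at a low share. Of 24 listed, 15 (62.5%) had prefix reads, against 20.1% of all genes with 20 or more reads in both libraries, and they held 0.258% and 0.234% of the list's reads, 0.246% ± 0.0171, next to 0.299% ± 0.00323 over all annotated genes. The median over the list was 0% and 0.0604%, and over all genes with 20 reads it was 0% in each library. The energy metabolism lists below had from 46.2% to 60.9% of such members with prefix reads, so this was not particular to the sarcomere. Genes were not matched for read depth in this or the later lists. Myh6, the main adult cardiac myosin heavy chain of the mouse, had 37 of 9032 reads (0.41%) and 38 of 8688 (0.437%), scattered over 27 and 26 models with 22 distinct 3′ ends in each library and at most 3 and 5 reads per model. In replicate 1 they had from 2 to 38 exons, next to 39 in the largest parent. Its partner Myh7, the slow isoform, had 17 of 128 (13.3%) and 4 of 46 (8.7%). Myl3, the ventricular essential light chain, had all of its 23 and 25 prefix reads of 4568 in each library on 1 model that kept the last intron. Nebl, which encodes the Z-disc protein nebulette, had 5 of 20 (25%) and 7 of 20 (35%), on 4 models in each library. The contrast between Myh6, with many ends of few reads, and Myl3, with a single end, appeared in both libraries.

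Calcium handling genes had a pooled share of 0.229% and 0.202%, with prefix reads in 7 of 18, next to 0.301% and 0.297% over all annotated genes. Of the 15 members with 20 or more reads in both libraries 46.7% had prefix reads, against 20.1% of all such genes. Ryr2, the calcium release channel of the sarcoplasmic reticulum, had 13 of 80 (16.2%) and 11 of 93 (11.8%). Its models in both libraries kept at most 26 exons. Only a new model was the parent of 5 of the 6 models in replicate 1 and of all 4 in replicate 2. The remaining model of replicate 1 had an annotated parent of 105 exons. Atp2a2, the calcium pump of the same membrane, had 10 of 3119 (0.321%) and 13 of 2933 (0.443%), and Trdn, which encodes triadin of the calcium release complex, had 9 of 542 (1.66%) and 8 of 572 (1.4%). Hrc, the histidine-rich calcium binding protein, had 8 of 3200 and 1 of 3508. Nexn and Fxyd1 are not members of this list and are not in its pooled share. Nexn, which encodes the actin-binding protein nexilin, had 56 of 663 (8.45%) and 43 of 665 (6.47%) over 9 and 13 models. Of these 7 and 11 ended at an annotated 3′ end of the gene, and 8 and 9 had only a new model as parent. Fxyd1, or phospholemman, a regulator of the sodium pump, had 22 of 2842 (0.774%) and 19 of 3341 (0.569%), all on models at annotated 3′ ends.

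Energy metabolism genes had few prefix reads. The nuclear respiratory chain list, 26 symbols of which Atp5o matches 2 gene identifiers, had 10 of 59428 reads (0.0168%) and 8 of 64440 (0.0124%). Fatty acid oxidation genes had 0.081% and 0.0712%, glycolysis genes 0.0675% and 0.0754%, and citric acid cycle genes 0.115% and 0.183%. All 4 pooled shares lay below the 0.301% and 0.297% of all annotated genes in both libraries. Members with prefix reads were not rare, against 20.1% of all genes with 20 or more reads in both libraries. Of such members they made 46.2% in the respiratory chain list and 60.9% in fatty acid oxidation. The values were 53.3% in glycolysis and 55.6% in the citric acid cycle. In the citric acid cycle, Idh3b, a subunit of isocitrate dehydrogenase, had the most, with 2 of 469 and 5 of 550. Extracellular matrix genes had 1 prefix read of 1947 in replicate 1 and none of 2426 in replicate 2. Endothelial genes had 1 of 772 and 3 of 1085, and macrophage genes 1 of 249 and 0 of 459, numbers too small for a share to be read.

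Splicing regulators stood at 5.82% and 7.08%, from 90 of 1546 and 112 of 1583 reads, next to 0.301% and 0.297% over all annotated genes. Most of these were reads of Son and Hnrnpa2b1, and the median over the list was 0% in each library. Prefix reads occurred in 10 of 26 members. Of the 13 members with 20 or more reads in both libraries 69.2% had them, against 20.1% of all such genes. Hnrnpa2b1, an RNA-binding protein of the heterogeneous nuclear ribonucleoprotein family, had 23 of 601 (3.83%) and 53 of 668 (7.93%). Its main model, with 18 and 46 reads, was a 2-exon stretch of 219 bases that ended at an annotated exon end and continued only into a new model. That model began at base 51463493 of chromosome 6 on the minus strand, while the annotated gene begins at 51469894. Srsf2, a serine-rich and arginine-rich splicing factor, had 2 of 53 and 3 of 46. Hsp90ab1, a heat shock chaperone and no member of the list, had a like 2-exon model of 256 bases with 22 and 31 reads, at the end of a retained-intron transcript. It began at base 45570799 of chromosome 17 on the minus strand, while the annotated gene begins at 45573271. Neither of these models holds the 5′ end of its gene. Of 21 cleavage and polyadenylation genes 3 had prefix reads, next to 1442 of 15031 annotated genes with any reads, among them the poly(A) polymerase Papola with 1 of 27 and 1 of 32. Of 20 genes listed for known intronic or upstream poly(A) sites 5 did. The pooled share of that list was 0.159% and 0.207%, next to 0.301% and 0.297% over all annotated genes. Most of its 9416 and 9164 reads were of Tpm1 (5941 and 5839, with 1 prefix read in each library) and Atp2a2 (3119 and 2933). Only 6 members had 20 or more reads in both libraries, and 50% of them had prefix reads, against 20.1% of all such genes. Pam, a peptide-amidating enzyme highly expressed in the atrium, had 3 of 106 and 3 of 125.

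The share of a gene's reads in prefix models was compared between the libraries in the 104 genes that reached 10 reads in each and 5 prefix reads over both. By Fisher's exact test with Benjamini-Hochberg adjustment 0 genes (0%) were called at 0.05, and 7 (6.73%) had an unadjusted p below it. The test compares 2 libraries and not conditions. Ptgds, a prostaglandin D synthase, came nearest, with 1 prefix read of 785 (0.127%) in replicate 1 and 10 of 503 (1.99%) in replicate 2, at an exact p = 5.58e-04 and an adjusted p = 0.058. It was called at p = 0.0463, after the same exact test and adjustment, when 20 reads were required in each library, and not called with the genomic class left out (adjusted p = 0.0516, exact test) or with no minimum of prefix reads (adjusted p = 1, exact test, 4765 genes). Hnrnpa2b1 followed with an exact p = 0.00201 and an adjusted p = 0.105.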

How the data were processed

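Long-read RNA sequencing of heart tissue gave, for each library, a table of raw counts of reads per transcript model deposited by the authors, per the file headers, and the models' exons. Per the deposited notes and models, reads were aligned to mm10 with GENCODE M21 and models were made with TALON. The sources used here do not give the aligner, versions, read filters or the choice of model ends. Each library was annotated on its own, so chains were matched here by every intron. Models on control RNAs were left out.

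The exon numbers of all models matched the listed ones, with 0 differences. Ends were placed against annotated parents with a tolerance of 20 bases. No genome was given, so sequence came from M21 transcripts; ends without covering sequence were left out and groups under 80% covered are not reported. Intervals are exact Clopper-Pearson 95% intervals. Fisher's exact test was tested on simulated data. Python 3.11.15, numpy 2.4.6, scipy 1.17.1 and matplotlib 3.10.9 were used. The members, lists and tests were chosen with earlier results of these data known. Named genes were the 20 with the most prefix reads, the 10 with the highest share among genes of 20 or more reads in both libraries, called genes, the 10 shared chains with the most reads and up to 5 members per list. The files held 630211 and 664319 mouse reads, so that a gene with 20 reads gives only a wide interval. Alternatives changed the reads counted, the parent, the tolerance, the minimum of reads and the sequence windows. The text names a subset of the genes chosen by rule. Csf1r and Hba-a1 were named as cell type markers. Eif5, Dync1i2, Mccc1, Ankrd11, Caprin1, Ccnl2 and Pofut2 fell outside the rules and were chosen with their values in view. The sequence at 1 chain, and its gene, are not reported here.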

Additional observations from a re-analysis of the deposited data

How the results depend on the processing

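The share of mouse reads in prefix models, 0.29% as the mean of both libraries, was 0.317% without the genomic class, 0.285% with control RNAs, 0.388% with models that are prefix and suffix at once and 0.218% without the 20 genes with the most prefix reads, the last chosen after seeing the data. Genes differing between the libraries numbered 0, but 1 (Ptgds) with 20 reads required in each and 2 (Ptgds and Atp2a2, both at an adjusted p = 0.0343 by Fisher's exact test) with the models of both subtypes added. Chains in both libraries fell from 279 to 97 with at least 2 reads in each. Ends in the next intron made 31.3%, and 32.3% with no tolerance, 30.9% with 50 bases, 33.7% in models of at least 2 reads and 32.3% with each read counted. In models of at least 2 reads, 20.7% reached the parent's end (14.9% in all), 43.9% of the parent was kept (38.7% in all, 37.6% with the longest parent), and adenine-rich ends inside exons made 39% (24.9% in all, 34.2% at 10 adenines, 14.2% at 15 and 9.26% for 6 in a row). At annotated 3′ ends only, signals in the next intron and past it were at 69.3% and 87.5% in those models (63.1% and 82.1% with 1 read included), and at 52.6% and 70.5% with AATAAA alone. In single libraries these values ranged over 0.287 to 0.294%, 31.1 to 31.5%, 13.9 to 15.9%, 38.4 to 39.1%, 24.2 to 25.5%, 62.7 to 63.4% and 81.2 to 83%, in the order of share, next intron, parent's end, parent kept, adenine-rich and the 2 signals. The cause of these shifts was not tested. No paired analysis was possible because the series has 1 group. Depth limits genes with few reads.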
